A study of Mus musculus with 37 samples.

Results

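The genes described here are 38 transcripts that mark the cells in and around the wall of brain vessels, read out in libraries made from isolated hippocampal astrocytes. They were chosen by symbol, with earlier results of these data known, and comprise 21 endothelial, 9 mural and 8 fibroblast genes. All 38 were found among the 21975 genes of the expression tables. The 37 libraries came from 20 mice, 4 months after controlled cortical impact (CCI), a focal mechanical injury of the cortex on 1 side of the brain, or after sham surgery.

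The injured mice were recorded by video-EEG between 2 and 4 months after injury. Those with at least 2 seizures had post-traumatic epilepsy and are called PTE+. Injured mice that did not meet that criterion are called PTE-. The contralateral hippocampus was measured in 5 PTE+, 10 PTE- and 5 sham mice, and the ipsilateral hippocampus in 4 PTE+, 8 PTE- and 5 sham mice. For 17 mice both hippocampi were measured. All mice were adult wild-type males, and shams also underwent craniectomy and electrode implantation. The labels give the strain as CD31, and the methods name the outbred strain CD1. Astrocytes were captured from papain-dissociated tissue with magnetic beads against the astrocyte surface antigen ACSA-2, so that vascular transcripts in these libraries come from an isolate aimed at another cell type.

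Brain endothelial cells line the capillaries and form the blood-brain barrier through tight junctions and selective transporters. Mural cells, the pericytes of capillaries and the smooth muscle cells of arterioles, wrap the endothelium. Fibroblasts lie around larger vessels and in the meninges and lay down collagens and small proteoglycans, also in scars after injury. Astrocyte endfeet contact the same vessel wall.

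Total counts per library ranged from 25371887 to 59846479, and 7666 to 14847 genes had more than 3 counts. All 10 astrocyte markers exceeded 3 counts in every library, with a summed level of 5860 to 21872 TPM (a level scaled for transcript length and for library size). The ipsilateral library of PTE- mouse a8_11 stood apart, with both the fewest genes detected and the lowest astrocyte sum. The summed markers of ependyma and choroid plexus ranged from 104 to 9895 TPM, highest in the ipsilateral libraries of PTE- mice a9_12 and a8_11, and those of red blood cells from 104 to 16536 TPM. Neuronal markers summed to 33.8 to 1026 TPM, oligodendrocyte lineage markers to 321 to 2259 TPM, and markers of microglia and border macrophages to 27.0 to 1074 TPM. In these pooled lysates, fewer cells of a type and less RNA per cell cannot be told apart. The mice carry name prefixes a8 and a9, whose meaning is not given in the sources used here.

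Promoter sequence is shown for the 5 genes on which the comparison of hemispheres below turned. RefSeq promoters (build GRCm38.p6) were matched for 26 of the 38 genes. The 100 bases upstream of the annotated start are given 5′ to 3′ on the gene's strand, with CCAAT, or ATTGG for the same box on the other strand, in capitals. None of these stretches overlapped an annotated exon.
Cldn5 (chr16:18776747-18776846, + strand): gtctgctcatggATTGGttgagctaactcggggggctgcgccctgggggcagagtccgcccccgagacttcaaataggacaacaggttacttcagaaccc
Ly6c1 (chr15:75048838-75048937, - strand): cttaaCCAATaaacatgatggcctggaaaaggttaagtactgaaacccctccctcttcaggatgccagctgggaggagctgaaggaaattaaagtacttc
Rgs5 (chr1:169655401-169655500, + strand): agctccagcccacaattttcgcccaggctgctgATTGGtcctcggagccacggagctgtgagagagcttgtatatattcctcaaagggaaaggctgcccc
Igfbp7 (chr5:77408046-77408145, - strand): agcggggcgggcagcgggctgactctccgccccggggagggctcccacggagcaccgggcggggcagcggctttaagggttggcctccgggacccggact
Ogn (chr13:49607915-49608014, + strand): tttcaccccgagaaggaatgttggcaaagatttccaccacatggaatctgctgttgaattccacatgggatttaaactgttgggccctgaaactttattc
A CCAAT box on either strand lay in this window in 5 of the 26 genes (19.2%), near the 18.9% of all 32851 promoters. The other box searched, TATAAA or its reverse complement TTTATA, lay in 1 of the 26 genes (3.85%), against 5.56% of all promoters, and in none of the 5 sequences above.

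Endothelial transcripts were present in every library. Of the 38 genes, 14 exceeded 3 counts in all 37 libraries, among them Cldn5, Ly6c1, Ly6a, Slco1c1 and Slc2a1. The summed level of the 21 endothelial genes ranged from 892 TPM in the ipsilateral library of PTE+ mouse a9_19 to 10606 TPM in the contralateral library of PTE+ mouse a8_10. Those extremes belonged to the same group of mice. Without Slco1c1, Slc2a1 and Mfsd2a these sums were 243 and 8899 TPM. In the a9_19 library 14 of the 21 genes exceeded 3 counts. The highest median levels over all libraries were those of Ly6c1 (428 TPM), a surface protein of brain endothelium, Slco1c1 (403 TPM), a thyroid hormone transporter, and Slc2a1 (389 TPM), the glucose transporter GLUT1, which astrocytes also make. Ly6a followed at 297 TPM and Cldn5, the main claudin of the blood-brain barrier, at 271 TPM. Ly6c1 and Ly6a belong to a family of related genes, and how reads were divided among its members was not examined. At the lower end, Cdh5, the cadherin of endothelial junctions, had a median of 0.97 TPM and Vwf, von Willebrand factor, 5.72 TPM. The endothelial genes thus did not share a common range in these libraries.

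Among mural genes, Vtn, which codes for vitronectin and is a pericyte transcript in brain, had the highest level of all 38 genes, with a median of 1418 TPM and a range of 448 to 3381 TPM. Pdgfrb, the PDGF receptor of pericytes, had a median of 59.1 TPM and Rgs5, a regulator of G protein signalling in pericytes, 44.9 TPM. Acta2, the actin of smooth muscle, had a median of 79.5 TPM and reached 575 TPM. Myh11, the smooth muscle myosin, exceeded 3 counts in 27 of 37 libraries. Pericyte transcripts were therefore detected more evenly across libraries than Myh11.

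Fibroblast transcripts were lower and more scattered, apart from Igfbp7, a secreted protein made by several vascular cell types, at a median of 331 TPM. Dcn, the proteoglycan decorin, had a median of 81.7 TPM and exceeded 3 counts in every library. Lum (lumican) and Col1a2 (a chain of type I collagen) had medians of 8.65 and 7.99 TPM. Ogn, the proteoglycan osteoglycin, exceeded 3 counts in 22 of 37 libraries. Slc47a1, a transporter of meningeal fibroblasts, exceeded 3 counts in 5 libraries, and reached 94.0 TPM in the ipsilateral library of PTE- mouse a9_16, 23.5 TPM in the contralateral library of PTE+ mouse a8_17 and 18.5 TPM in the ipsilateral library of PTE- mouse a9_12. It was listed at 0 in all 10 sham libraries and did not pass the count filter, so that 37 of the 38 genes entered each fit.

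**Figure D1:**
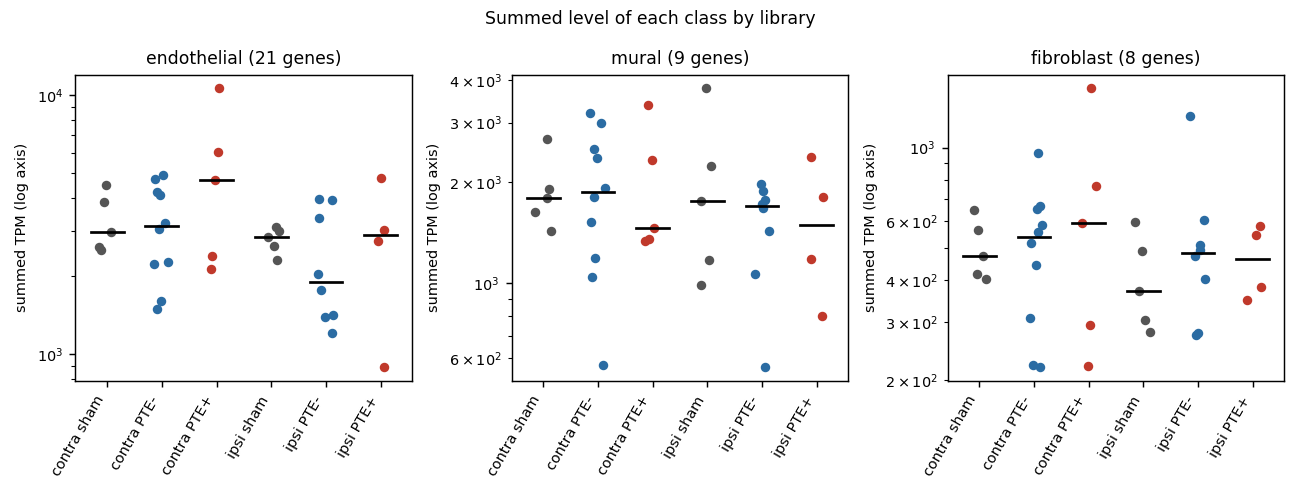
Summed TPM of the endothelial, mural and fibroblast genes (log axis) in each of the 37 libraries by hemisphere and group, with a bar at the median. Endothelial sums run from 892 to 10606 TPM and the groups overlap in every class. In most libraries Vtn makes up most of the mural sum and Igfbp7 most of the fibroblast sum.

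**Figure D2:**
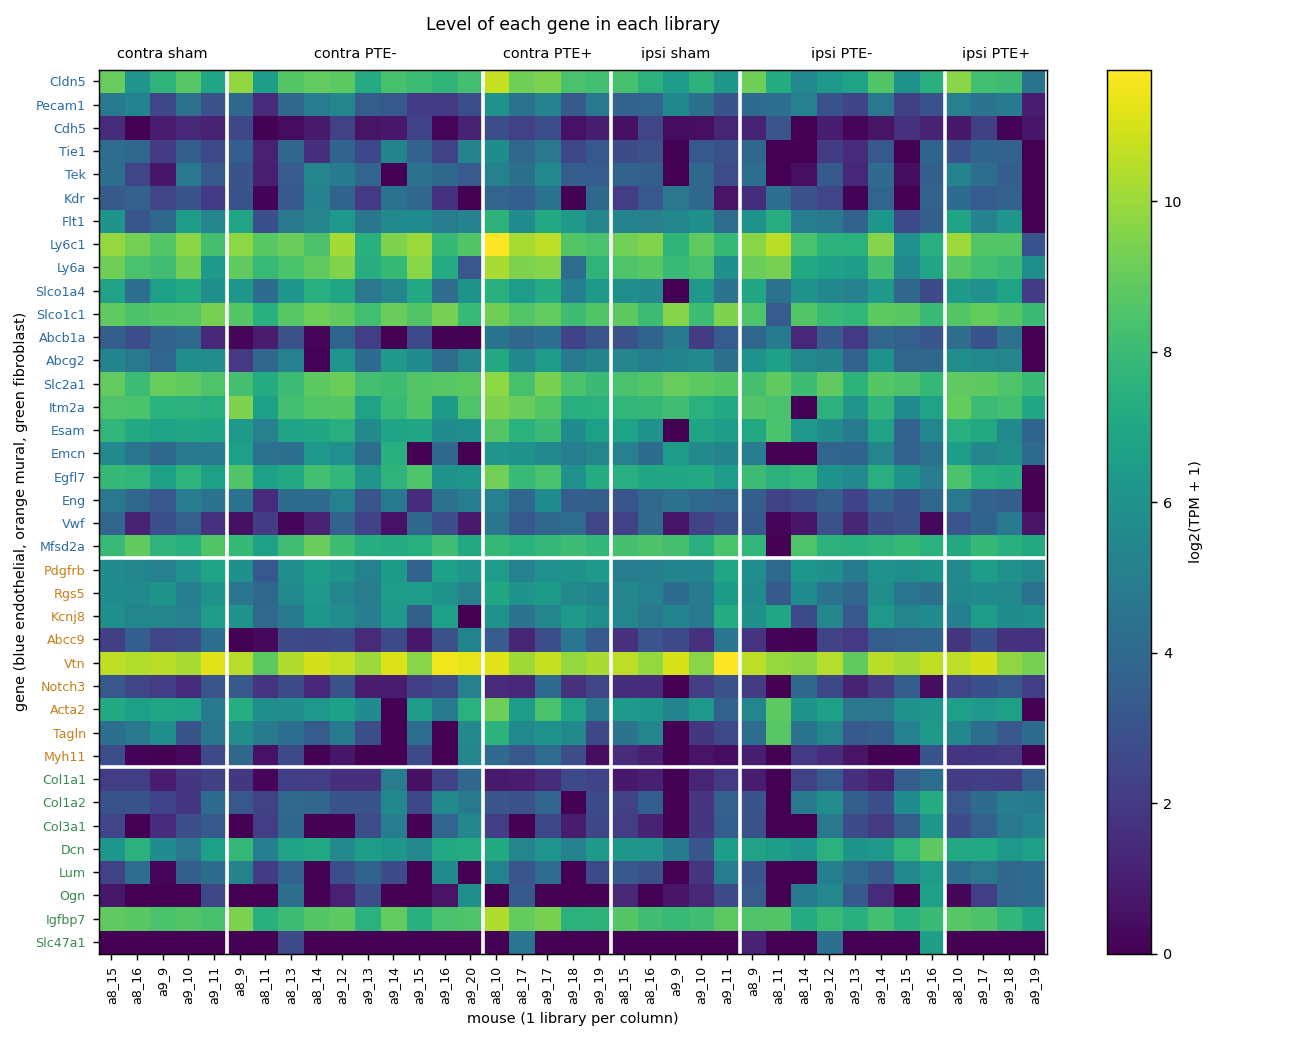
Level of each of the 38 genes as log2(TPM + 1), 1 column per library ordered by hemisphere and group. Vtn is high throughout, Slc47a1 is near 0 in most columns, and the ipsilateral PTE- library a8_11 lacks Mfsd2a while its Acta2 reaches 450 TPM.

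The first question was whether these transcripts differed between injured mice with and without epilepsy on the side away from the impact. In the contralateral hippocampus, endothelial genes were higher in PTE+ than in PTE- mice in the estimates, and Esam and Ly6c1 passed the unadjusted threshold. Esam, an adhesion molecule of endothelial junctions, was at 51.9, 99.0, 178, 254 and 395 TPM in the 5 PTE+ libraries, and at 33.5 to 168 TPM in the 10 PTE- libraries with a median of 97.5 TPM. Ly6c1 was at 334, 384, 1188, 1511 and 3448 TPM in the PTE+ libraries, and at 175 to 1162 TPM in the PTE- libraries with a median of 486 TPM. For both genes the same 3 PTE+ mice, a8_10, a8_17 and a9_17, lay above all 10 PTE- mice, and the other 2 lay within their range.

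The edgeR quasi-likelihood test gave log2 fold changes of 1.02 (SE 0.38, p = 0.0135) for Esam and 1.04 (SE 0.48, p = 0.0415) for Ly6c1, with an adjusted p of 1 for both. Thus 2 of 37 genes were called, against a background of 2.21% of the 14642 genes tested. Of the 21 endothelial genes, 18 had positive estimates, with a median log2 fold change of 0.63, and 7 of 9 mural genes were positive with a median of 0.30. Of the 7 fibroblast genes tested, 5 were negative, with a median of -1.30, and the median over all genes was -0.05. Esam lost its call without mouse a8_10 (0.61, p = 0.132, edgeR). Ly6c1 lost its call in 9 of 15 omissions of a single library, most of all without a8_10 (0.38, p = 0.434, edgeR). The other losses came without PTE+ a8_17 or a9_17, or PTE- a8_13, a8_14, a9_13, a9_14, a9_16 or a9_20, at estimates of 0.94 to 1.06. Ly6c1 also lost its call with the name prefix as a covariate, and with the 2 groups alone. It lost it too without the 3 contralateral libraries under 11000 genes over 3 counts, where Esam, Acta2 and Tie1 were called. The background was 1.47% to 8.12% over the settings other than single omissions. The exact permutation test of log2(CPM + 1), where CPM is the count scaled to library size, gave p = 0.112 for Esam and p = 0.219 for Ly6c1. By that exact test 3 of 38 genes passed an unadjusted p of 0.05, against 3.89% of 17757 genes, and neither Esam nor Ly6c1 was among them. Abcb1a, an efflux pump of the barrier, was at 4.23, 7.44, 13.8, 18.7 and 23.0 TPM in PTE+ mice and at 0.02 to 12.7 TPM in PTE- mice (difference 3.03 on the log2 scale, exact permutation p = 0.0117), and edgeR gave 2.28 (SE 1.14, p = 0.0584). Vwf was higher (2.47, exact permutation p = 0.0196) and Col1a2 lower (-1.72, exact permutation p = 0.0363). Abcb1a was at 0.02 to 0.13 TPM in PTE- libraries a8_9, a8_14, a9_14, a9_16 and a9_20. These held 11350, 11724, 10788, 13238 and 10294 genes over 3 counts. The other PTE- libraries held 12059 to 14727 and the PTE+ libraries 13080 to 14392. Vwf was at 0.14 to 14.1 TPM in PTE- and 4.48 to 23.2 TPM in PTE+ libraries. The part of gene detection in these differences was not tested. In 1 gene of the 14642 tested (0.00683%), not a member, the edgeR difference passed adjustment. In the a8 mice Esam differed by 1.59 on the log2 scale and in the a9 mice by 0.29 (exact permutation p = 0.0667 and 0.667). With so few a8 mice, 0.0667 was the smallest p that test could give. In the same comparison all 10 astrocyte markers had negative estimates (median -0.20, 1 called) and all 8 neuronal markers positive ones (median 1.30, 1 called). Summed neuronal levels were 97.4 to 1026 TPM in PTE+ and 81.5 to 222 TPM in PTE- mice. Of the 8 ependymal and choroid plexus markers 5 were negative (median -0.28), and 1 was called lower. Their part in the result was not tested.

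Against sham mice, which both injured groups share as controls, edgeR called no gene in contralateral PTE- mice (0 of 37, background 1.54%). The exact permutation test passed 1 of 38 (background 3.02%), Abcb1a at -2.26 on the log2 scale. The low PTE- values of Abcb1a given above, 0.02 to 0.13 TPM, entered that test as well. In contralateral PTE+ mice 1 of 37 was called, against 1.23% of all genes tested. That gene was Cldn5, at 293, 327, 583, 724 and 1679 TPM in PTE+ mice and at 68.7, 120, 202, 419 and 525 TPM in shams. The highest 3 PTE+ values exceeded every sham value, and the groups overlapped. The log2 fold change was 1.42 (SE 0.58, p = 0.0227, adjusted p = 1, edgeR), the exact permutation test gave p = 0.0873, and no member passed that test (0 of 38; background 3.11%). Without PTE+ mouse a8_10 the change was 0.85 (p = 0.143, edgeR), and the call also ended without sham a8_16 (1.19, p = 0.0575) or sham a9_11 (1.21, p = 0.0584). It was also lost, at 1.18 (p = 0.0680, edgeR), without the 3 contralateral libraries that had fewer than 11000 genes over 3 counts. In the same contrast all 5 red blood cell markers had positive estimates (median 1.06), with sums of 704 to 8547 TPM in PTE+ mice and 104 to 4041 TPM in shams, and 8 of 10 microglia and border macrophage markers were positive (median 0.85), with sums of 308 to 599 TPM and 149 to 519 TPM. Of the 10 astrocyte markers 8 were negative (median -0.25). None of the genes in these 3 lists was called, and their part in the result was not tested.

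On the ipsilateral side, fibroblast genes were higher in PTE- mice than in shams in the estimates, and Dcn passed the unadjusted threshold. Dcn was at 7.91, 29.1, 68.1, 73.0 and 93.3 TPM in the 5 sham libraries, and at 66.4 to 455 TPM in the 8 PTE- libraries with a median of 99.9 TPM. Of the PTE- mice, 4 lay above every sham, and the highest was a9_16. Col1a2 was at 0, 2.55, 3.81, 10.4 and 10.99 TPM in shams and at 0 to 152 TPM in PTE- mice with a median of 18.4 TPM. Its groups overlapped, with the lowest PTE- value in a8_11 and the highest again in a9_16.

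Dcn had a log2 fold change of 1.37 (SE 0.56, p = 0.0249, adjusted p = 1, edgeR) and an exact permutation p of 0.0202, and was the 1 of 37 genes called, against 1.58% of the 14903 genes tested. Of the 7 fibroblast genes tested 6 were positive, with a median log2 fold change of 2.02 against 0.02 over all genes. Endothelial genes had a median of -0.24 and mural genes of -0.09. The exact test passed 4 of 38 genes (background 2.74%), Dcn higher and Slc2a1, Emcn and Eng, an endothelial TGF-beta co-receptor, lower. Without PTE- a9_16 the Dcn estimate was 0.96 (p = 0.0775, edgeR), and without sham a9_9 it was 1.21 (p = 0.0599, edgeR). Without a8_11 the number of calls was 7, against 1.95% of the 14867 genes then tested. Dcn, Col1a1, Col1a2 and Ogn were higher in PTE- mice, and Slc2a1, Slco1c1 and Mfsd2a, a lipid transporter of the barrier, were lower. The lower genes were those left out of the second endothelial sum given above, and no other endothelial member was called in that fit. Within the a8 mice the Dcn difference was 0.205 and within the a9 mice 2.398 on the log2 scale (exact permutation p = 0.6 and 0.0714). With so few a8 mice that test could not fall under 0.05 there. The astrocyte markers Aldh1l1 and Aldoc were lower in the same contrast (log2 fold changes -0.63 and -0.72, unadjusted p = 0.00882 and 0.0145, edgeR). All 8 ependymal and choroid plexus markers had positive estimates (median 1.73), with sums of 317 to 9895 TPM in PTE- mice and 104 to 1768 TPM in shams. All 5 red blood cell markers had negative estimates (median -1.01, 1 called). Their part in the result was not tested.

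In ipsilateral PTE+ mice against the same shams, 0 of 37 genes were called by edgeR (background 1.66%). The fibroblast genes again had 6 of 7 positive estimates, with a median of 1.67. Col1a1, the other chain of type I collagen, was at 3.09, 3.23, 3.58 and 10.96 TPM in PTE+ mice and at 0.06, 0.74, 1.02, 1.30 and 3.03 TPM in shams. Its groups did not overlap, which held for 1 of the 38 genes and for 1.21% of the 17287 genes with more than 3 counts in a library, with an exact permutation p of 0.0159 and an edgeR log2 fold change of 1.88 (SE 1.36, p = 0.185). By the exact test 3 of 38 genes passed an unadjusted p of 0.05, Col1a1 and Col3a1 higher and Mfsd2a lower, against 3% of the same 17287 genes. In the same contrast 9 of 10 astrocyte markers had negative estimates (median -0.25), with Aldh1l1 and Aldoc called lower (unadjusted p = 0.0300 and 0.0271, edgeR), as had 9 of 10 microglia and border macrophage markers (median -0.85, 1 called), 6 of 8 oligodendrocyte lineage markers (median -0.74, 1 called) and all 5 red blood cell markers (median -1.28, 1 called). Of the 8 ependymal and choroid plexus markers 7 were positive (median 0.67). The astrocyte sums were 13366 to 17763 TPM in PTE+ mice and 14043 to 21872 TPM in shams, and the red blood cell sums 1490 to 2410 TPM and 943 to 7629 TPM. Their part in the result was not tested.

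Between PTE+ and PTE- mice on the injured side, 0 of 37 genes were called by edgeR (background 1.75%) and 0 of 38 by the exact permutation test (background 1.98%). The median log2 fold changes were 0.07 for endothelial, -0.05 for mural and -0.49 for fibroblast genes. All 7 fibroblast genes tested had negative estimates, none past the threshold. Negative too were all 8 ependymal and choroid plexus markers (median -1.35) and all 5 red blood cell markers (median -0.31). Of 10 microglia and border macrophage markers 8 were negative (median -0.57, 1 called). Positive estimates were held by 6 of 8 neuronal (median 0.38) and 6 of 10 astrocyte markers (median 0.05). Their part in the result was not tested.

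**Figure D3:**
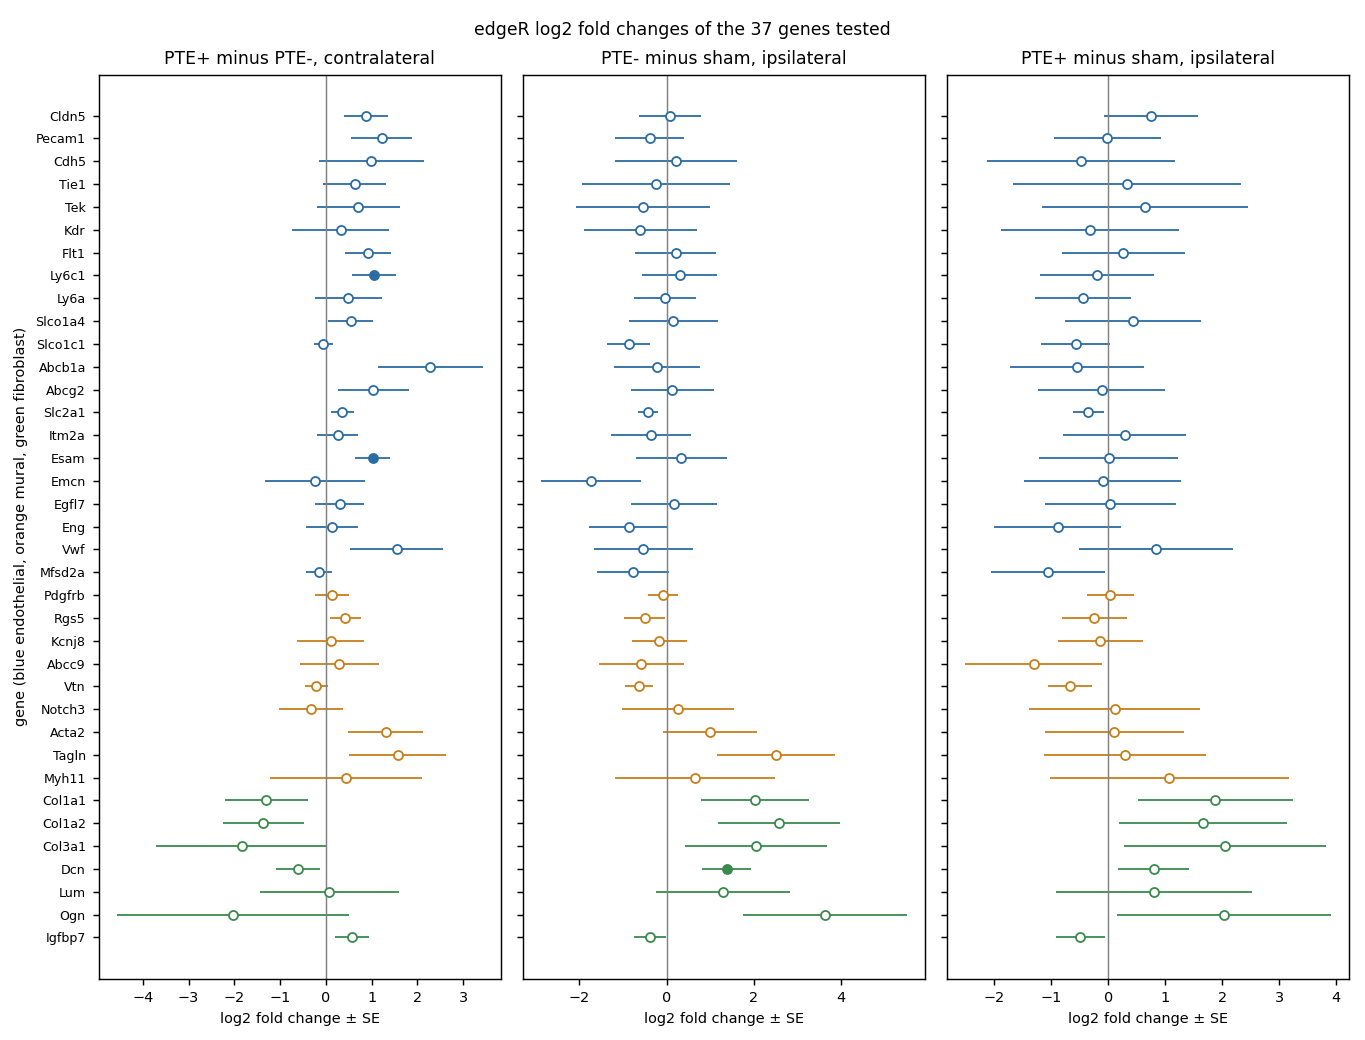
edgeR log2 fold changes with standard errors for the 37 genes tested in 3 contrasts, filled where the unadjusted p was under 0.05. Esam and Ly6c1 are filled on the contralateral side and Dcn on the ipsilateral side, and the green fibroblast points lie right of 0 in both contrasts with sham except Igfbp7.

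The hemispheres of the same mouse were then compared. In shams 0 of 37 genes were called (background 2.05%). In PTE- mice 2 of 37 were called against 4.56%, with Ogn higher and Emcn, an endothelial sialomucin, lower on the injured side, and in PTE+ mice 2 of 37 against 2.93%, with Ogn higher and Igfbp7 lower. With the mouse as a block, which pairs the hemispheres, the calls were 0 in shams (background 0.331%), 5 in PTE- mice (2%) and 4 in PTE+ mice (0.763%). In PTE- mice these were Ogn and the efflux pump Abcb1a higher, and Cldn5, Slco1c1 and Rgs5 lower. In PTE+ mice Ogn was higher, and Ly6c1, Cldn5 and Igfbp7 were lower. Emcn lost its call under the block (-2.19, p = 0.188, edgeR) and without PTE- mouse a8_9 or a9_12, Ogn in PTE- mice without a9_16 in the unblocked fit (3.46, p = 0.0934, edgeR), and Igfbp7 in PTE+ mice without a8_10 or a9_17 in the unblocked fit. In PTE- mice all 8 ependymal and choroid plexus markers (median 1.67) and all 8 neuronal markers (median 0.63) had higher estimates on the injured side. There 4 of 5 red blood cell markers (median -1.44, 3 called) and 8 of 10 astrocyte markers (median -0.08, 2 called) had lower ones. In shams all 5 red blood cell markers had higher estimates (median 0.93). In PTE+ mice all 5 red blood cell markers (median -1.02), 9 of 11 microglia and border macrophage markers (median -1.24, 1 called) and 7 of 8 neuronal markers (median -0.48) had lower estimates. So had 6 of 9 oligodendrocyte lineage markers (median -0.53, 1 called). Of the 8 ependymal and choroid plexus markers 5 had higher estimates in PTE+ mice (median 0.49), and 2 were called higher. Their part in these results was not tested. The difference between hemispheres was not called to differ between groups for any member (0 of 37 for PTE- against sham, background 3.13%, and 0 of 37 for PTE+ against PTE-, background 2.94%). Of the 5 red blood cell markers 3 were called lower in the former contrast and 1 in the latter, and their part was not tested.

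All 17 mice were also fitted together with the mouse as a block, a comparison chosen after the data were seen. Then 5 of 37 genes were called, against 0.843% of the 13644 genes tested. Ogn was higher on the ipsilateral side (background 0.374% for higher calls), and Cldn5, Ly6c1, Rgs5 and Igfbp7 were lower (background 0.469% for lower calls). The exact sign-flip permutation test of the paired log2(CPM + 1) called 9 of 38 genes, 8 of them lower, against 4.5% of 18139 genes. None of the 5 passed adjustment over all genes (adjusted p = 1, edgeR).

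Cldn5 averaged 427 ± 395 TPM contralaterally and 226 ± 207 TPM ipsilaterally (SD, n = 17), and was lower ipsilaterally in 14 of 17 mice. Its log2 difference was -1.002 (SE 0.33, p = 0.00628, edgeR), and the exact sign-flip permutation test gave p = 0.0054. All 4 PTE+ mice, 6 of 8 PTE- mice and 4 of 5 shams had the lower value on that side. Ly6c1 averaged 806 ± 776 and 477 ± 393 TPM, and was lower in 13 of 17 mice, with a log2 difference of -0.92 (SE 0.41, p = 0.0356, edgeR). Rgs5 averaged 57.8 ± 29.4 and 35.8 ± 19.6 TPM, with a difference of -0.68 (SE 0.23, p = 0.00895, edgeR). Igfbp7 averaged 422 ± 280 and 283 ± 98.0 TPM, with a difference of -0.50 (SE 0.17, p = 0.00891, edgeR). For each of these 4 genes the ranges of the hemispheres overlapped.

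Ogn moved the other way. In the 17 mice with both hemispheres it exceeded 3 counts in 5 contralateral and 14 ipsilateral libraries, averaged 0.77 ± 1.78 and 13.8 ± 25.1 TPM, and was higher ipsilaterally in 14 mice and lower in none. The 3 contralateral libraries with no ipsilateral partner held 8.63 TPM (PTE+ a8_17), 19.5 TPM (PTE- a8_13) and 57.4 TPM (PTE- a9_20), all above the highest of the 17 paired contralateral libraries (6.02 TPM) and within the ipsilateral range. With them the contralateral mean was 4.93 ± 13.2 TPM (SD, n = 20). In the 4 PTE+ mice with both hemispheres it was at or under 0.02 TPM contralaterally and at 0.16, 3.51, 13.6 and 16.2 TPM ipsilaterally. Against a floor of 3 counts per library the mean over these 4 mice was at least 162-fold higher, and mouse a8_10 alone held 0.02 against 0.16 TPM. In PTE- mice the ipsilateral values ran from 0 to 99.7 TPM with a median of 9.11 TPM, and in shams from 0 to 5.63 TPM. The exact sign-flip permutation test over the 17 mice gave p = 0.000122 and, adjusted over all genes tested, 0.692.

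Leaving out any 1 mouse kept Ogn, Cldn5, Rgs5 and Igfbp7 under the unadjusted threshold, whereas Ly6c1 was lost in 4 of 17 cases (without a8_10, a9_12, a9_15 or a9_17), the largest p being 0.0684 without a9_12. In the 12 injured mice alone 5 of 37 genes were called (background 1.17%), with Vtn in place of Ly6c1. Vtn was lost in 7 of 12 omissions of a mouse, the largest p being 0.0846 without a8_14 (edgeR). By the sign-flip permutation test 10 of 38 genes passed (background 4.55%). Without the 5 mice that had a library of few detected genes, the 12 mice left gave 12 calls among the members, 11 of them lower on the ipsilateral side (background 1.86%). The median log2 difference over all genes was -0.08 in the fit of 17 mice, 0.012 without a8_11, where 7 members were called against 1.43%, and 0.013 without the 5 mice. Libraries of the 2 hemispheres were deposited in separate tables, and whether they were prepared together is not given in the sources used here, so that side and any preparation batch cannot be told apart.

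**Figure D4:**
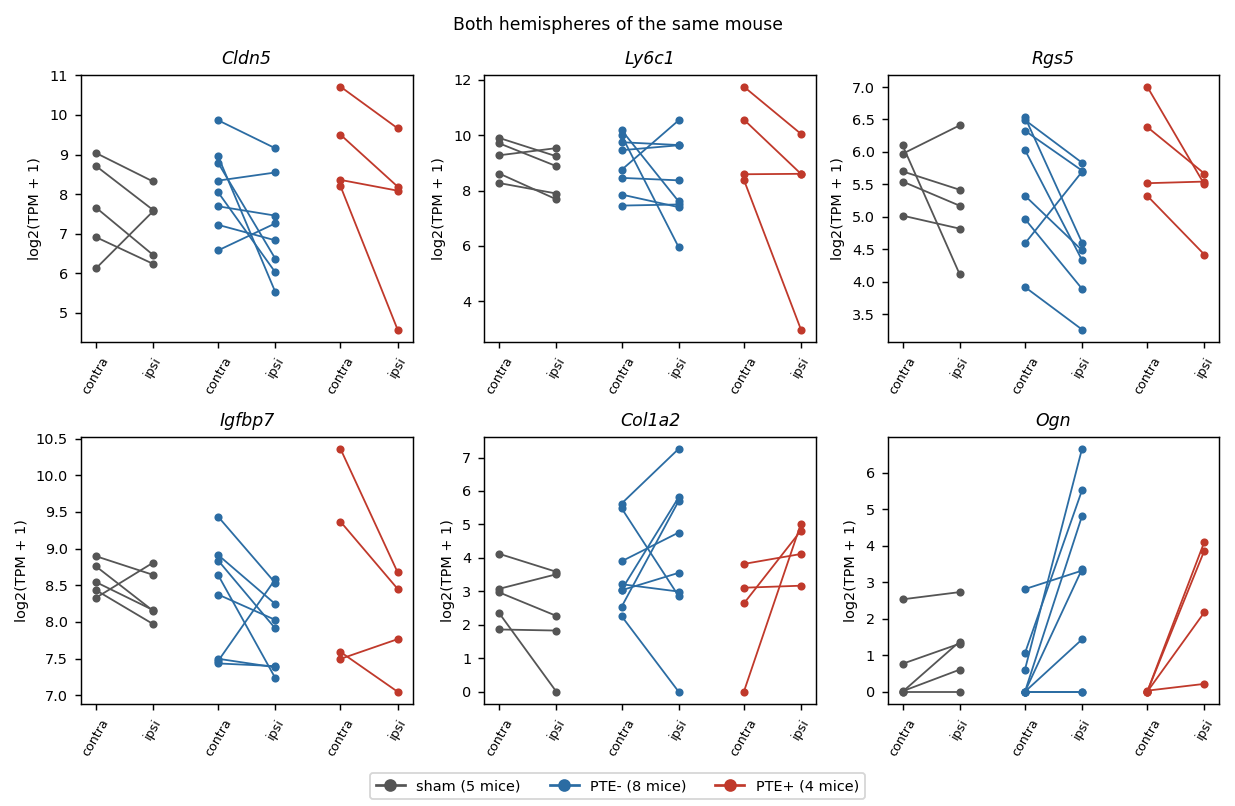
Level as log2(TPM + 1) in the contralateral and ipsilateral hippocampus, with a line per mouse, for 6 genes in shams, PTE- and PTE+ mice. Cldn5 falls from left to right in 14 of 17 mice, and Ogn in none.

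Across libraries of 1 hemisphere the members did not vary as a block. These correlations of log2(CPM + 1) were examined after the values were seen and are given as description only, since libraries share depth and composition. With Cldn5, 13 of the 20 other endothelial genes had a Spearman rho over 0.5 contralaterally (n = 20) and 12 of 20 ipsilaterally (n = 17), against 1.88% and 4.45% of all genes. The median rho with Cldn5 was 0.58 and 0.56 for endothelial genes, 0.21 and 0.29 for mural genes, and 0.02 and -0.16 for fibroblast genes.

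Particular genes departed from their class. Slco1c1 and Mfsd2a tracked Cldn5 weakly (rho 0.36 and 0.09 contralaterally, 0.14 and -0.02 ipsilaterally), and Slco1c1 followed the pericyte gene Vtn instead (rho 0.67 and 0.59). Igfbp7, listed with the fibroblast genes, followed Ly6c1 (rho 0.75 and 0.74) rather than Col1a2 (rho 0.26 and -0.67). The smooth muscle genes Acta2 and Tagln went together contralaterally (rho 0.84) and less so ipsilaterally (rho 0.55), where both were highest in a8_11. Col1a1 and Col1a2 had a rho of 0.39 contralaterally and 0.91 ipsilaterally, and Col1a2 with Ly6c1 had -0.17 and -0.66. With the group means removed, the last value was -0.56. Within the a8 and a9 mice the rho of Cldn5 and Ly6c1 was 0.74 and 0.88 contralaterally, and 0.26 and 0.84 ipsilaterally.

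**Figure D5:**
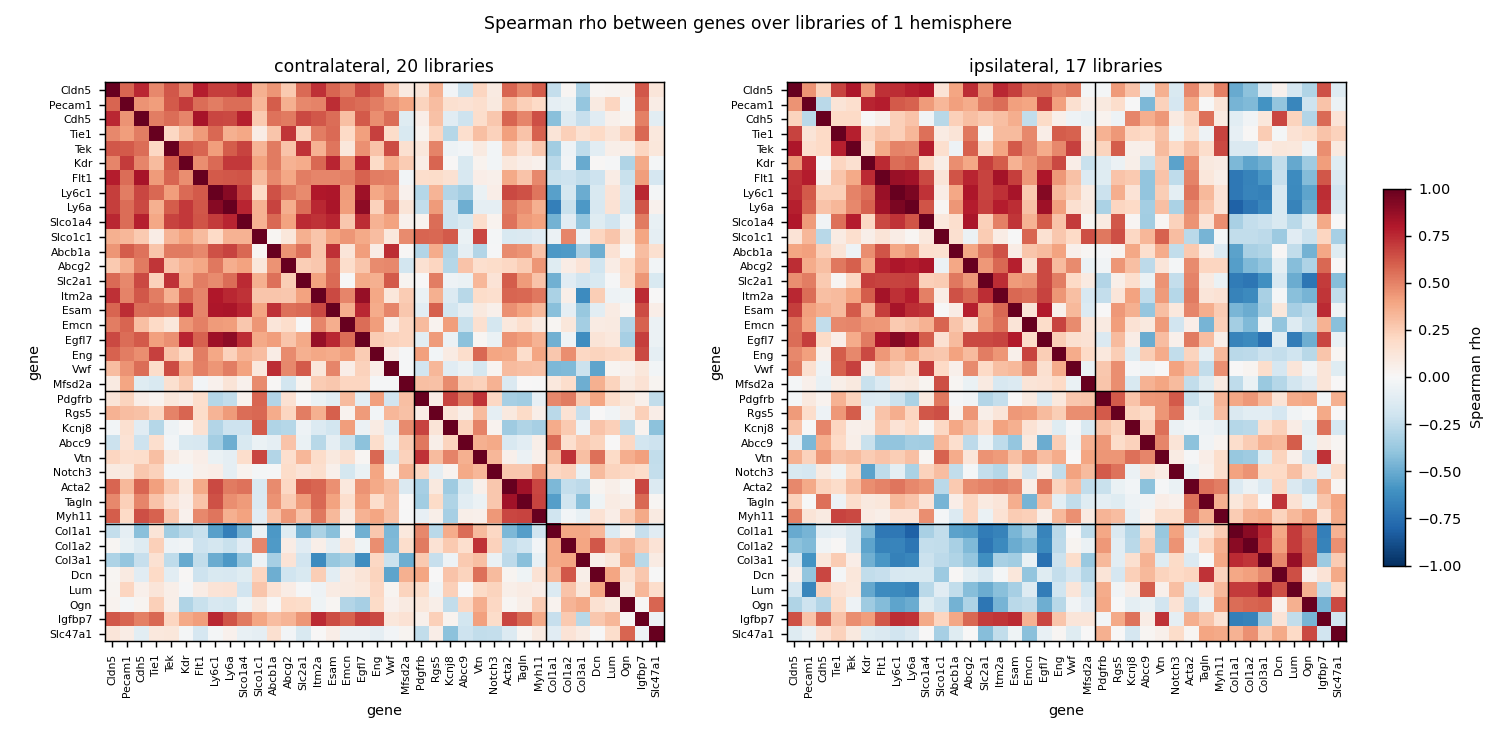
Spearman rho between every pair of the 38 genes over the 20 contralateral and 17 ipsilateral libraries, with lines between the endothelial, mural and fibroblast genes. Cldn5 exceeds 0.5 with 13 and 12 of the 20 other endothelial genes, and the collagens are blue against Ly6c1 on the ipsilateral side.

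Further genes of the same cell types, and of the signals that pass between astrocytes and vessels, were read from wider lists. In contralateral PTE+ against PTE- mice, 1 of 28 other endothelial genes tested was called (background 2.21%), and 22 of 28 were positive. The called gene was Adgrf5, an adhesion receptor of endothelium (log2 fold change 2.11, SE 0.71, unadjusted p = 0.00725, edgeR). None of 17 other mural genes, 20 other fibroblast genes or 23 signalling and matrix genes was called there. In ipsilateral PTE- mice against sham none of these lists held a call (background 1.58%), and 18 of 20 other fibroblast genes were positive with a median of 1.08. In ipsilateral PTE+ mice against sham, 1 of 20 other fibroblast genes was called (background 1.66%). This was Col6a1, a chain of type VI collagen (log2 fold change 3.24, SE 1.51, unadjusted p = 0.0453, edgeR). Between hemispheres of PTE- mice, 1 of 20 other fibroblast and 1 of 29 other endothelial genes were called (background 4.56%). The other mural and the signalling and matrix genes held no call. Serping1, the C1 inhibitor, was higher on the injured side (1.39, SE 0.47, unadjusted p = 0.0062, edgeR). Lef1, a transcription factor of Wnt signalling in barrier endothelium, was lower (-1.49, SE 0.66, unadjusted p = 0.0309, edgeR). Between hemispheres of shams none of these lists held a call (background 2.05%). Other endothelial genes had lower ipsilateral estimates in 24 of 29 cases in shams (median -0.46). The same held for 21 of 29 in PTE- mice (median -0.57) and 24 of 29 in PTE+ mice (median -0.65). In PTE+ mice 1 of 18 other mural genes was called (background 2.93%), and the other wider lists held no call. Myl9, a myosin light chain of contractile cells, was lower on the injured side (-1.22, SE 0.58, unadjusted p = 0.0445, edgeR). None of the 23 signalling and matrix genes, which include Vegfa, Wnt7a and Wnt7b, was called in any contrast.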

How the data were processed

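RNA of ACSA-2-selected hippocampal astrocytes was amplified with the SMART-Seq V4 kit and sequenced. Per the labels and methods, the authors trimmed reads with Trim Galore 0.6.4 and aligned to mm10 with Bowtie2 2.4.1. They deposited expected counts and TPM from RSEM 1.2.28, in a table per hemisphere. The annotation release is not given in the sources used here. Columns were matched to samples by name. Expected counts were rounded.

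Genes passing filterByExpr were fitted with edgeR 4.0.16 (TMM, quasi-likelihood F test, R 4.3.3), in 1 fit of the 3 groups per hemisphere (14642 and 14903 genes). Hemispheres were compared over the 17 mice with both (15731 genes). A call is an unadjusted p under 0.05, and adjusted p is Benjamini-Hochberg over all genes tested. The common biological coefficient of variation was 1.32 and 1.40. Exact permutation tests were 2-sided, on log2(CPM + 1), with smallest possible p of 0.000333 to 0.00794 between groups. Separate mice are the replicates. A floor of 3 counts was used, which covers counting error only. Standard errors come from the edgeR fit and include spread between libraries, and ± values are SDs. Alternatives were RLE size factors, no filter, DESeq2 1.42.0, the 2 groups alone, the name prefix as a covariate, the mouse as a block, a pseudocount of 0.1, more than 10 counts, and leaving out each library. Fits were tested on simulated data with less spread between libraries than measured here, and with fold changes larger than most of those called. Those tests do not show how well changes of the size called here are recovered. Hemispheres of a mouse pair by origin; over 12629 genes their deviations from the group mean correlated with a median r of 0.08 (-0.04 to 0.34, 17 mice), against -0.02 for other mice of the group.

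The members and lists were chosen with earlier results of these data known. Genes were named by level (the 5 endothelial, 4 mural and 4 fibroblast genes highest in median TPM), by a call, or as Slc47a1; those called only under an alternative, by the exact test or by correlation were chosen after their values were seen. The pooled comparison of hemispheres, its sign-flip test, the within-prefix values and the omission of libraries with few genes were also chosen then.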

Additional observations from a re-analysis of the deposited data

Results flagged for a closer look

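Among 96 sets of values (13 genes and 3 class sums in 6 groups), 6 held a library set apart from its group by Dixon's criterion at the 95% level. Independent, normally distributed values would meet it in about 1 set in 20. Here the values were TPM not put on a log scale, and all 6 flagged were the highest of their set. The class sums also contain the genes tested, so that rate does not hold for these sets. Cldn5 was 932 TPM in the contralateral library of PTE- mouse a8_9, with the next at 494 TPM. Pdgfrb was 121 TPM in the ipsilateral library of sham mouse a9_11, with the next at 39.1 TPM. Acta2 was 450 TPM in the ipsilateral library of PTE- mouse a8_11, with the next at 105 TPM. In the ipsilateral library of PTE- mouse a9_16, Col1a2 was 152 TPM (next 55.1), Dcn 455 TPM (next 210) and the summed fibroblast genes 1240 TPM (next 606).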

How the results depend on the processing

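Counts of members called that moved by over 1.5 times were as follows. Contralaterally, PTE+ against PTE- gave 1 call with the name prefix as covariate or the 2 groups alone and 0 to 6 leaving out 1 library, PTE- against sham 1 without a filter, and PTE+ against sham 2 without a filter or with the 2 groups alone, 0 without the libraries of few detected genes, and 0 to 2 leaving out 1 library. Ipsilaterally, PTE+ against PTE- gave 1 without a filter, without the libraries of few genes, or with DESeq2, and 0 to 1 leaving out 1 library. PTE- against sham gave 2 without a filter or with the prefix, 5 without the libraries of few genes or with DESeq2, and 0 to 7 leaving out 1 library. PTE+ against sham gave 1 with the 2 groups alone or without the libraries of few genes, and 0 to 1 leaving out 1 library. Between hemispheres, PTE- mice gave 5 with the replicate block, without the libraries of few genes or with DESeq2, and 1 to 4 leaving out 1 mouse, and PTE+ mice 4 with the replicate block and 1 to 2 leaving out 1 mouse. The difference between PTE- and sham gave 1 without the libraries of few genes and 0 to 2 leaving out 1 mouse, and that between PTE+ and PTE- 1 with RLE size factors, 2 without the libraries of few genes and 0 to 1 leaving out 1 mouse. In the blocked fits, leaving out 1 mouse gave 4 to 7 calls over all mice and 4 to 10 over injured mice, and leaving out the libraries of few genes gave 12 in each. The block changed no count in shams or in the differences between groups. The Dcn difference was 0.205 within the a8 and 2.398 within the a9 mice. Adjusted over all genes, edgeR called no member, whereas DESeq2 called Slc47a1 ipsilaterally in PTE- mice against sham (adjusted p = 7.51e-09) and against PTE+ mice (adjusted p = 7.32e-08), with 3 of 8 PTE- libraries over 3 counts and an exact permutation p of 0.226 and 0.232, and Ogn between hemispheres in PTE+ mice (adjusted p = 0.00353). The share of all genes called moved as well, for example without a filter to 6.2% in ipsilateral PTE- mice against sham and 9.29% between hemispheres in PTE- mice. With DESeq2 it was 3.33% in the former, and without the libraries of few genes 1.94%. The median over all genes changed sign under some settings, among them ipsilaterally in PTE- against sham with the prefix (0.02 to -0.072) and over the hemispheres of 17 mice without a8_11 (-0.08 to 0.012). The causes were not tested. Groups held 4 to 10 libraries, with a common coefficient of variation of 1.32 to 1.4.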
